A study of Rattus norvegicus with 2 samples.

Results

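The cathepsins described here are 9 lysosomal and endosomal protease genes of the rat, Ctsb, Ctsc, Ctsd, Ctse, Ctsh, Ctsk, Ctsl, Ctss and Ctsz, measured in lung. They were chosen by gene symbol, as all probe sets whose platform annotation names exactly 1 gene and that gene is on the list. This gave 11 of the 31042 probe sets that are no controls, and 9 of the 14217 genes. Ctsc and Ctsl had 2 probe sets each and the other 7 genes had 1. Total RNA of rat lung was hybridised to 2 Affymetrix arrays, on which a probe set is a group of short probes for 1 transcript. Each array is a group of its own, handled by a different experimenter, and the study asked how reproducible expression values are. The arrays are called those of experimenter 1 and experimenter 2, by the numbers in their titles. The labels name the species and the tissue, and give no strain, sex, age, treatment or pooling for either array. They also do not say whether both arrays started from the same lung.

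Cathepsins are made as inactive precursors, carried to acidic compartments mostly by mannose 6-phosphate receptors and matured there by cleavage. Ctsb, Ctsc, Ctsh, Ctsk, Ctsl, Ctss and Ctsz encode cysteine proteases of the papain family, while Ctsd and Ctse encode aspartic proteases. In lung they are known from macrophages, where they degrade ingested material and process antigen, and from alveolar type 2 cells, where Ctsh takes part in the maturation of surfactant protein B.

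Probe sets were put in 10 classes of equal size by mean level, with class 10 the brightest. Of the 9 cathepsins 7 lay in class 10, and Ctse and Ctsk lay in class 7. Ctsh had the highest value and Ctsk the lowest on each array. No member differed 2-fold between the arrays, and the largest difference was that of Ctsb, 1.24-fold higher for experimenter 2. Values are log2 RMA values of single arrays. Since neither experimenter has a second array, no difference has an error or a test.

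**Figure D1:**
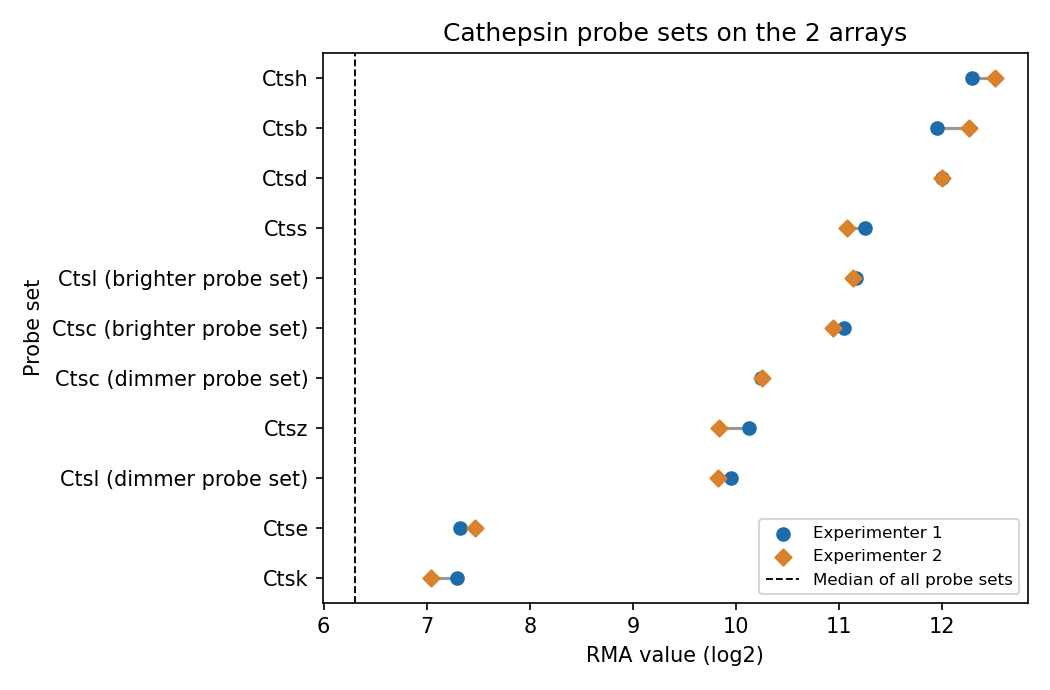
RMA values (log2, horizontal axis) of the 11 cathepsin probe sets (vertical axis) on the array of experimenter 1 (circles) and of experimenter 2 (diamonds), joined by a line; the dashed line is the median mean level of all 31042 probe sets, 6.31. Ctsh, Ctsb and Ctsd are at the top and Ctse and Ctsk stand apart at the bottom, above the median, on both arrays.

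Among the peptidases that trim chain ends, Ctsh encodes an aminopeptidase. It measured 12.29 for experimenter 1 and 12.52 for experimenter 2, which placed it at percentiles 99.3 and 99.4 of the probe sets of each array. The difference of 0.22 was larger in size than that of 71.0% of the probe sets in class 10. Ctsb, a carboxydipeptidase that can also cut within chains, measured 11.95 and 12.26, at percentiles 99.0 and 99.3. Its difference of 0.31 exceeded in size that of 85.2% of class 10. Ctsb and Ctsh were thus the members with the largest positive differences. Ctsz, a carboxypeptidase also called cathepsin X, went the other way. It measured 10.12 and 9.83, a difference of -0.29, at percentiles 93.7 and 92.0. Ctsz and Ctsb were the extremes of the 9 members, 0.60 apart in their differences.

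Ctsc encodes dipeptidyl peptidase I, which activates the serine proteases of neutrophil, mast cell and lymphocyte granules. Its brighter probe set measured 11.05 and 10.94, and its dimmer one 10.24 and 10.25. The differences were -0.11 and 0.011, so the direction for Ctsc depended on the probe set. Its probe sets were 0.81 apart in level for experimenter 1 and 0.69 for experimenter 2, far more than either moved between arrays.

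Of the endopeptidases, Ctsd, the main aspartic protease of lysosomes, gave nearly the same value on both arrays, 12.0019 and 11.9954. Its difference of -0.0065 was the smallest of the 9, and only 2.95% of class 10 had one as small or smaller. Ctsl, a cysteine endopeptidase, measured 11.17 and 11.13 by its brighter probe set and 9.95 and 9.82 by its dimmer one. Both Ctsl probe sets were lower for experimenter 2, by differences of -0.035 and -0.13. Ctss, which cleaves the invariant chain in antigen-presenting cells and keeps activity near neutral pH, measured 11.26 and 11.07, a difference of -0.18. Ctsk, the collagen-degrading protease best known from osteoclasts, measured 7.29 and 7.04, at percentiles 62.5 and 59.7. Its difference of -0.25 exceeded in size that of 65.4% of class 7. Ctse, an aspartic protease of endosomes in immune and gastric epithelial cells, measured 7.33 and 7.47, at percentiles 63.0 and 65.6, a difference of 0.14.

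Of the 9 members, judged by the brighter probe set, 3 were higher for experimenter 2 (Ctsb, Ctse and Ctsh) and 6 were lower, which is 66.7% lower. At or above 6.31, the median level of all probe sets, were 9558 genes, of which 59.7% were lower for experimenter 2. Among the genes of class 10, to which 7 members belong, 59.3% were lower. The median difference of the members was -0.035, against -0.049 over all 14217 genes. Ctsd turned to a positive difference, at most 0.028, when the arrays were centred, a loess trend was removed or the columns were quantile-normalized, which left 5 members lower. The count of members at least 2-fold apart was 0 of 9, where 0.282% of the 9558 genes were. At 1.5-fold it was also 0, where 2.79% were. Over the 7 members of class 10, each by its brightest probe set, the size of the difference, whatever its sign, had a median of 0.18. All 3105 probe sets of that class had a median size of 0.14. The dimmer probe sets of Ctsc and Ctsl, also in class 10, differed by 0.011 and -0.13, both below 0.14 in size. The median of the members leaves those out. With both counted in, the middle size is that of the dimmer Ctsl probe set, 0.13, which is below 0.14. In class 7 the median size was 0.17, with Ctse below it and Ctsk above.

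**Figure D2:**
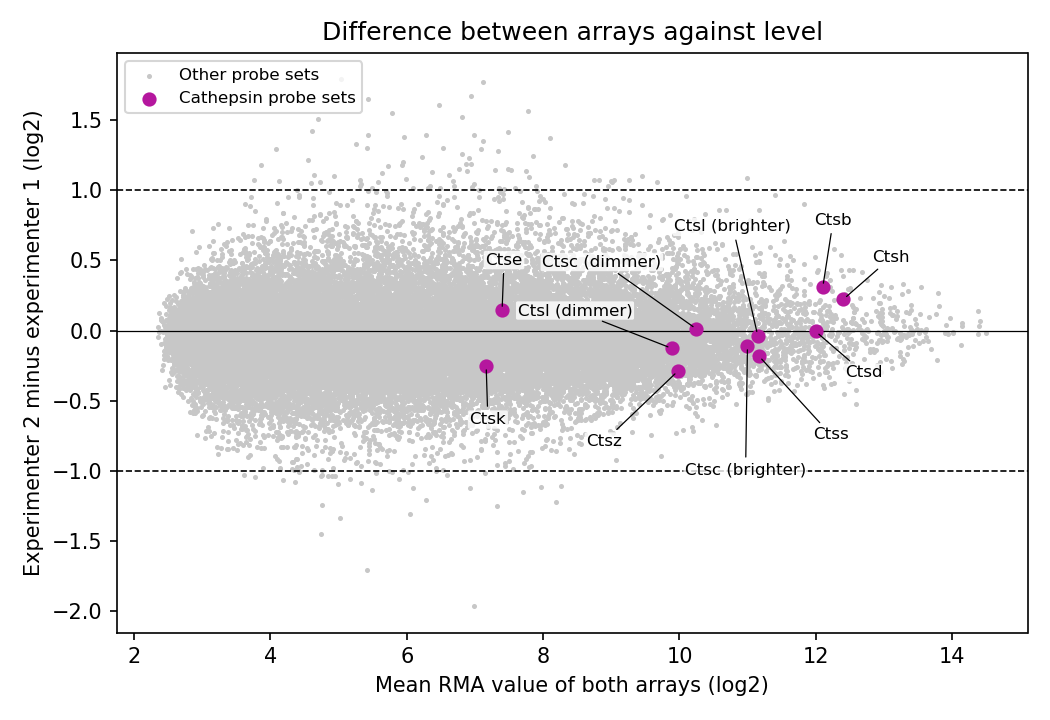
Difference between the arrays (experimenter 2 minus experimenter 1, log2, vertical axis) against the mean RMA value (log2, horizontal axis) for all probe sets that are no controls (grey) and the 11 cathepsin probe sets (coloured, named); dashed lines mark 2-fold. All cathepsin probe sets lie between -0.29 and 0.31, inside the grey cloud.

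For Ctsc and Ctsl the differences of both probe sets were 0.12 and 0.091 apart. Over the 212 genes with both brightest probe sets in class 10, this gap had a median of 0.21, and 54.7% of those genes had both differences of the same sign. Ctsl was of that kind and Ctsc was not. The level gap between the Ctsl probe sets was 1.21 and 1.31, so the place of Ctsl in the ranking depended more on the probe set than on the array.

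The order of the members was nearly the same on both arrays. Values of different probe sets also reflect how well their probes bind, so this is an order of probe set values and not of RNA amounts. For experimenter 1 it ran Ctsh, Ctsd, Ctsb, Ctss, Ctsl, Ctsc, Ctsz, Ctse, Ctsk. For experimenter 2, Ctsb stood above Ctsd and Ctsl above Ctss. Of the 36 pairs of members, 34 kept their order and these 2 turned. Ctsb was 0.054 below Ctsd for experimenter 1 and 0.26 above it for experimenter 2. Ctsl was 0.090 below Ctss and then 0.056 above it. Ctse and Ctsk kept their order with gaps of 0.037 and 0.43, the first of them smaller than the difference of either gene between the arrays. The largest step in the ranking, between Ctsz and Ctse, was 2.80 and 2.36 and far exceeded every difference of a member between arrays. Among genes in place of probe sets, each by its brightest probe set, Ctse stood at percentiles 45.5 and 48.4 and Ctsk at 44.9 and 41.6, below the median gene. Ctsh stood at 99.1 and 99.3 by the same measure.

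Other genes named cathepsin spread over the full range of the arrays. Of 12 on the list used here, 8 had a probe set with 1 symbol, and Ctsg, Ctsll3, Cts7 and Cts8 were not analysed here. Ctsa, a serine carboxypeptidase that protects lysosomal glycosidases, measured 11.05 and 11.01, and Ctsf, a papain family protease, 9.68 and 9.55. Both lay near the bright members. Ctso, another papain family protease, measured 7.52 and 8.07, and its difference of 0.55 was larger than that of any of the 9 members. It was 1.46-fold, and 93.8% of class 7 had a difference as small or smaller. Ctsw, known from cytotoxic lymphocytes, measured 6.27 and 6.26, at percentiles 49.3 and 49.8. The relatives of Ctsl known from rodent placenta were at the bottom of both arrays, between percentiles 0.43 and 9.15. Ctsq measured 3.26 on both arrays, Ctsj 3.08 and 2.90, Ctsm 3.09 and 3.32, and Ctsr 2.66 and 2.53. RMA gives no detection call, so whether these low values are above background cannot be read from them. The median difference of the 8 genes was -0.020, and it was above 0, from 0.0078 to 0.022, under the 3 other scalings.

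**Figure D3:**
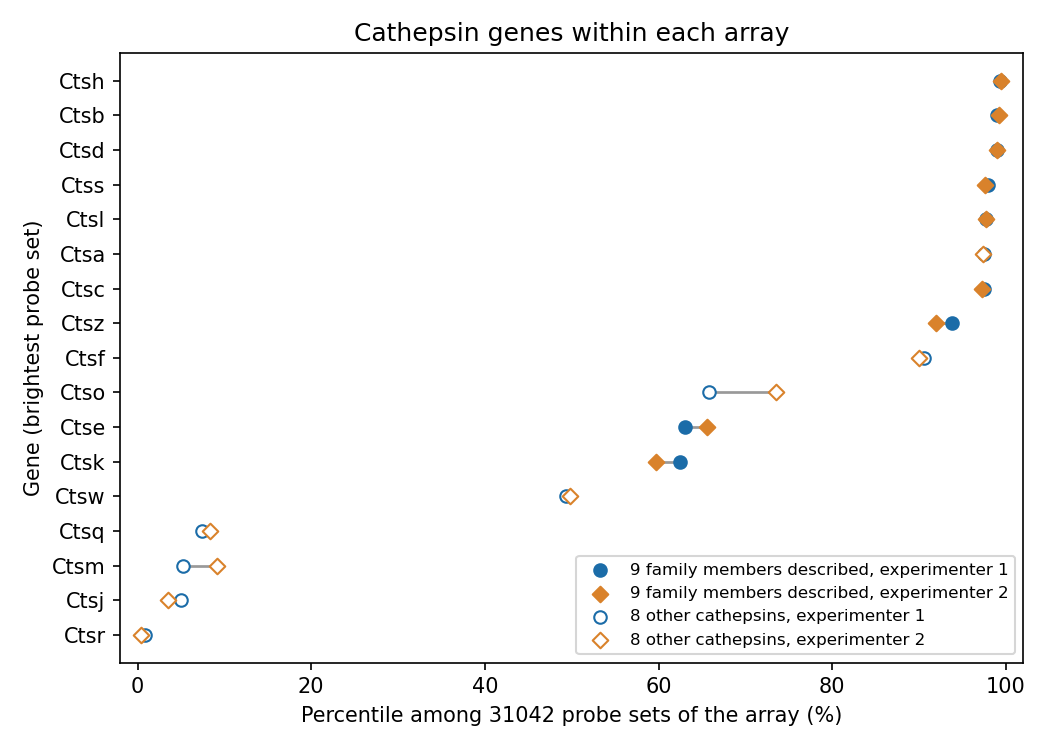
Percentile among the 31042 probe sets of each array (horizontal axis, %) of the brightest probe set of 17 cathepsin genes (vertical axis), for experimenter 1 (circles) and experimenter 2 (diamonds); filled symbols are the 9 members and open symbols the 8 other cathepsins. The placental genes Ctsj, Ctsm, Ctsq and Ctsr lie below 10%, and Ctso, from 65.8 to 73.5, has the longest line.

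The choice of members by name used no sequence, and the stretches upstream of their starts were compared for what they share. RefSeq promoter entries of rat assembly GRCr8 matched 8 of the 9 members, all but Ctsb, and the 250 bases before each annotated start were read. GC content ran from 46.4% for Ctss to 66.8% for Ctsl, with a median of 54% over 21842 protein-coding genes. Ctsl had 24 CG dinucleotides, Ctsd 22, Ctsz 14 and Ctsc 10, against 3 each in Ctsk and Ctsh, 4 in Ctse and 5 in Ctss, where the median gene had 8. Both groups hold bright members, since Ctsh had the highest value and Ctss lay at percentiles 97.9 and 97.6. Ctsl, Ctsd, Ctsz and Ctsc all lay in class 10, while Ctse and Ctsk, of the group with few CG, lay in class 7. A link of CG content with level was not tested. Ctsd, Ctsl and Ctsk are shown, as the CG-rich aspartic protease, the member with the most CG and the member with the lowest value. All are written 5′ to 3′ on the gene's strand, with each CG in capitals.
Ctsd, chr1:206968822-206969071, minus strand: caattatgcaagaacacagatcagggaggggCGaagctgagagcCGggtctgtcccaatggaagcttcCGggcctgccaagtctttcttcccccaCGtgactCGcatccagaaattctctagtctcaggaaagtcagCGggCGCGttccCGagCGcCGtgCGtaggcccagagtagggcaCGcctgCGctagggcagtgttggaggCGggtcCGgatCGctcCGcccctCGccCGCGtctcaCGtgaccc
Ctsl, chr17:769854-770103, plus strand: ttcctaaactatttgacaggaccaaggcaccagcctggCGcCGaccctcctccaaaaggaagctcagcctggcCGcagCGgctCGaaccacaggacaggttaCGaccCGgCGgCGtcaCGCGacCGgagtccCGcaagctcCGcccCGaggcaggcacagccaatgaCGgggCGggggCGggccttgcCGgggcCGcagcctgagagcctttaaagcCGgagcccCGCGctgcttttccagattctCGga
Ctsk, chr2:185747298-185747547, plus strand: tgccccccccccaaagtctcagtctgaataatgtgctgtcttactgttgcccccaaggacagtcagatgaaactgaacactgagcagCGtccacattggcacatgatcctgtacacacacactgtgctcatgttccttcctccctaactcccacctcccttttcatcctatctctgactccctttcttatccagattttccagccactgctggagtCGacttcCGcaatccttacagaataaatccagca

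The motif CACGTG, the palindromic core of the element bound by TFEB and its relatives at lysosomal genes, reads the same on both strands. It was present in 1 of the 8 members, Ctsd, at 2 places whose first bases lie at -157 and -10 from the annotated start. It was present in 6.16% of the 21842 protein-coding promoters of that length. In the other 7 these letters are not in this window. For Ctsc, Ctss and Ctse the start used lay 189, 80 and 47 bases inside the outermost annotated gene start. Part of their windows therefore lies within the annotated gene. Ctsk and Ctss lie near each other on chromosome 2, with 1 annotated protein-coding gene between them. Their values for experimenter 1, from different probe sets, were 7.29 and 11.26. A link of place with level was not tested.

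Genes that work with cathepsins were described through 9 lists by role, with 66 genes measured beside the members. These were not filtered by level, so all 14217 genes are set beside them. None of the 66 was 2-fold apart, where 39 of all genes were, and none was 1.5-fold apart, where 461 were. Of the 66, 45 were lower for experimenter 2 and 21 higher, beside 8349 lower and 5842 higher of all genes. Their median difference was -0.053, and that of all genes -0.049. Cystatins inhibit cysteine cathepsins, and 4 of 7 were measured. Cst3, the secreted cystatin C, measured 13.05 and 13.06, and Cstb, the intracellular cystatin B, 11.21 and 11.19, so the bright inhibitors hardly differed. Cst6, which also inhibits legumain, measured 7.44 and 7.03, a difference of -0.41. The cystatin median of -0.023 turned to 0.011 with centred arrays and to 0.010 after loess.

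Of the 9 genes for precursor processing and sorting to lysosomes, 5 were lower and 4 higher, with a median of -0.037. Psap, prosaposin, measured 11.76 and 11.70, and M6pr, the cation-dependent mannose 6-phosphate receptor, 10.77 and 10.73. Nagpa, the enzyme that uncovers the mannose 6-phosphate signal, had the largest difference of that list, 8.13 against 7.80. The 11 genes of the lysosome membrane and its proton pump had a median of -0.16. Under the alternatives this median ran from -0.30 by second probe sets to -0.090 by the mean of the list. Of the 11 genes, 8 were lower and 3 higher, and 9 lay in class 10, where 59.3% of all genes were lower. Lamp1 and Lamp2, the main membrane glycoproteins, measured 12.34 on both arrays and 11.83 and 11.85. Mcoln1, a lysosomal cation channel, differed by -0.30, at 7.80 and 7.50. Among 14 other lysosomal enzymes and carriers, 10 were lower and 4 higher, with a median of -0.067. Of all genes at or above the median level, 59.7% were lower. Npc2, a cholesterol carrier, measured 13.02 and 12.93, and Asah1, acid ceramidase, 10.95 and 10.89. Man2b1, lysosomal alpha-mannosidase, measured 10.52 and 9.97, and its difference of -0.54 exceeded in size that of 97.7% of class 10, more than any cathepsin of the 9.

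**Figure D4:**
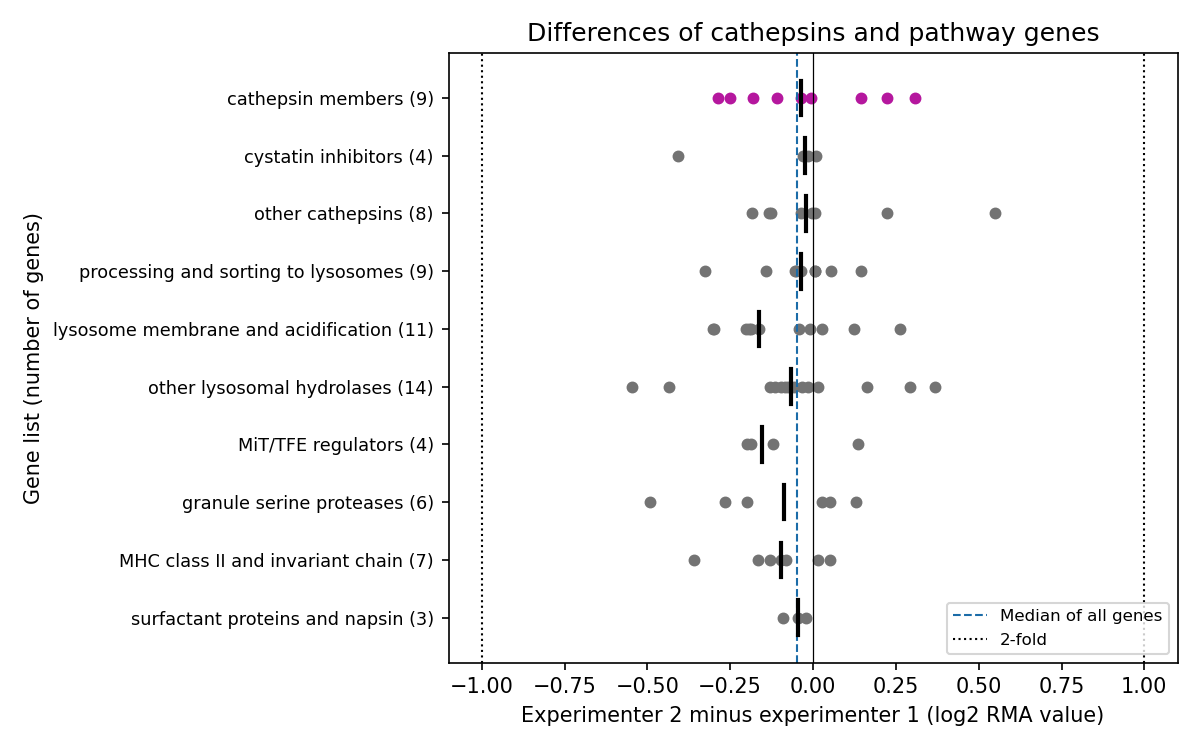
Difference between the arrays (experimenter 2 minus experimenter 1, log2, horizontal axis) of each gene's brightest probe set, for the 9 cathepsins (coloured) and 9 lists of related genes (grey), with the number of genes in brackets; black bars are list medians, the dashed line is the median of all genes, -0.049, and dotted lines mark 2-fold. No gene reaches 2-fold, and the cathepsins span -0.29 to 0.31.

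The TFEB family of transcription factors, which act on lysosomal genes, had 3 of 4 members lower and a median of -0.15. That median was -0.062 by the mean over each gene's probe sets and -0.0016 by second probe sets. Tfeb itself, the member that was higher for experimenter 2 and is named outside the rule after its values were seen, measured 7.73 and 7.87. Tfe3 measured 8.17 and 8.05, Mitf 8.06 and 7.87, and Tfec 6.11 and 5.91. Of 10 granule serine proteases listed as matured by Ctsc, 6 were measured, 3 higher and 3 lower, with a median of -0.087. Gzmk and Gzmm, lymphocyte granzymes, measured 9.12 and 9.18, and 8.78 and 8.81, while Gzmb, granzyme B, measured 7.69 and 7.20. That median was above 0 under both other choices of probe set, at 0.019 by the mean over each gene's probe sets and 0.039 by second probe sets. Of the 7 genes of MHC class II and its invariant chain, the substrate of Ctss, 5 were lower and 2 higher, with a median of -0.098. Cd74, the invariant chain itself, measured 13.12 and 13.13, RT1-Da 12.55 and 12.60, and RT1-Ba 11.42 and 11.06. Among the surfactant genes, Sftpb, whose precursor Ctsh and napsin cut, measured 12.79 and 12.70, and Sftpc 14.39 and 14.36. With napsin, these 3 genes were all lower for experimenter 2, by a median of -0.045, where that of all genes was -0.049. Among all genes of class 10, 59.3% were lower. A probe set of Sftpa1, another surfactant protein gene, was higher, at 12.88 and 13.12. Sftpa1 is not on the list and is named outside the rule after its values were seen.

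Markers of the cells that may hold these proteases were measured on the same arrays. The 6 alveolar type 2 markers were all in class 10, with median levels of 12.76 and 12.68, and 5 were lower for experimenter 2. Of 10 alveolar macrophage markers 7 were measured (Marco, Msr1 and Siglec1 were not analysed here), with median levels of 10.13 and 9.95, and 5 of the 7 were lower. Cd68, a macrophage endosomal protein, measured 10.39 and 10.16, and Lyz2, lysozyme, 14.51 and 14.49. Itgax and Adgre1 were higher, by 0.21 and 0.15, and are named outside the rule after their values were seen. Among all genes at or above the median level, 59.7% were lower. Median differences were -0.056 for alveolar type 2 cells, -0.076 for macrophages, -0.082 for mast cells, -0.054 for fibroblasts and -0.071 for dendritic and B cells. The median over all genes was -0.049. Of 3 club cell markers 2 were measured and went opposite ways, Scgb1a1, a secretoglobin, at 14.37 and 14.44 and Cyp2f4, a cytochrome P450, at 9.35 and 9.03, with a median of -0.12. The neutrophil median of -0.016 turned to between 0.018 and 0.040 under the 3 other scalings. The part of cell composition in the cathepsin differences was not tested, and fewer cells of a type cannot be told apart from less RNA per cell in whole lung.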

How the data were processed

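Lung RNA was measured on 2 arrays, 1 per experimenter. The deposited values are log2 values that the authors made with RMA, per the submitters' processing notes; RMA corrects background, equalises the distributions of the arrays and summarises each probe set, so it hides differences in total RNA. The log base was taken as 2 from the range, and the RMA version is not given in the sources used here. Of 31099 probe sets, 57 controls were left out and 20826 had 1 symbol, of which 20758 were updated through Entrez identifiers to the gene table of GRCr8. No member's symbol changed. Each gene took the values of its brightest probe set, by the mean of both arrays. Differences are experimenter 2 minus experimenter 1. Percentiles of the size of a difference were taken within 10 classes of mean level. With 1 array per group no test was possible. A difference of 2-fold at or above the median level of all probe sets served as a rule of size. The number of arrays limits the precision.

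The members and lists were chosen with earlier results of these data known. All members were named; of each list, the 2 brightest genes, the one with the largest difference and any past 2-fold could be named, and all other cathepsins. Python 3.11.15 was used with numpy 2.4.6, pandas 2.3.3 and statsmodels 0.14.6 (loess fraction 0.3), and matplotlib 3.10.9. The script was tested on simulated data.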

Additional observations from a re-analysis of the deposited data

How the results depend on the processing

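No paired analysis was possible because a group holds 1 array only, and leaving one out would end the comparison. The alternatives were centring, loess, quantile normalization and both other choices of probe set. Further ones were a 1.5-fold threshold, no filter on level and the mean of a list. Removal of probe sets with names ending in _x_at, _s_at or _a_at was the last. No member passed the fold threshold under the 7 alternatives run for that count. Dropping the filter on level could not change it, since all 9 members lay above the median level of all probe sets. The members' median difference stayed between -0.048 and -0.0011, and 5 or 6 of the 9 were lower. Directions turned for Ctsd under the 3 scalings (0.0085 to 0.028) and for Ctsc by its second probe set (0.011). With the mean over probe sets or the second probe set, 35 of 36 pairs kept their order. Of the 16 lists, all had medians below 0 as reported, and 13 to 15 did under the alternatives. The median of all genes was also below 0, at -0.049 as reported. It is not given here under the alternatives, so the counts of lists under those have no matching background. The lists are not separate, since Sftpb, Sftpc and Napsa are in both the surfactant and the alveolar type 2 list. Besides those named above, the sorting list turned to 0.0050 with the mean over probe sets, and by the mean of a list the other cathepsins turned to 0.037 and the fibroblast markers to 0.020. The 7 members with 1 probe set could not change with the probe set choices, and without detection calls the lowest values have no stated limit. Removal of probe sets by those name endings could not change any member, since no member probe set had such a name.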
